A study of Drosophila melanogaster with 12 samples.

Results

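The genes described here are mus101, spidey, SF2, nrv2, CG5199, CG12253, CG14995, CG1674 and CG10936. They were chosen by the measured G2 minus G1 changes themselves: in each, an array probe set passed the test between the G2 and G1 fractions in the wing disc and in S2 cells, in opposite directions. A probe set was a member when the platform annotation gave it 1 of these gene symbols and no other, which held for 11 of 18769 probe sets and 9 of 11982 genes. SF2 and CG1674 have 2 probe sets each, and the other genes have 1.

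The study sorted cells by DNA content and measured their RNA on Affymetrix Drosophila expression arrays. The groups were wing disc G2, wing disc G1, S2 G2 and S2 G1, with 3 arrays each. Wing discs, the larval epithelium that gives rise to the adult wing, were dissected from wandering larvae of the wild-type strain OreR (instar 3, 25 °C). S2 cells, a cultured embryonic line with features of blood cells, had fewer than 30 passages, and the G2 gate of both sources also takes in mitotic cells. The labels name no separate dissections or cultures behind the arrays of a group, so the p-values cover only the spread between these samples, and that spread may be technical. Values are log2 of the deposited intensity, on which 1 unit is a doubling, with a median of 4.18 to 4.37 and a maximum of 14.80 to 14.95 per array. A value under 5 is called near background. Such sorted fractions are bulk samples, in which fewer cells of a type and less RNA per cell cannot be told apart.

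The labels were checked against marker genes. All 13 wing disc genes measured had a mean of at least 5 in both disc fractions, against 5 of 13 in each S2 fraction, where nub, vg, en, hh, salm, ara, caup and eyg were under 5. Of the wing disc genes 11 were higher in the disc, and pnr (-2.74 ± 0.10, adjusted p = 1.02e-10) and ap (-0.35 ± 0.06, adjusted p = 0.000263) were lower there than in S2. Those under 5 in S2 passed the filter on dim probe sets (log2 of at least 5 on at least 3 arrays) only because of their disc arrays. The direction of their level was thus set by the filter and is no test of the labels. Of 12 haemocyte genes, 9 had a mean of at least 5 in each disc fraction, against 10 in S2 G2 and 9 in S2 G1, so this count does not separate the sources. By level 9 of the 12 were lower and 3 higher in the disc. srp and eater were under 5 in the disc and above it in S2, while NimC1 and gcm were under 5 in both S2 fractions. For these genes too the filter set the direction of the level.

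The named genes act in separate processes. mus101 is the fly TopBP1, a scaffold that is needed for the start of DNA replication and for signalling through the ATR checkpoint kinase. spidey encodes a ketoacyl-CoA reductase, an enzyme of the cycle that lengthens very-long-chain fatty acids. SF2 is an SR protein, a splicing factor that binds exon sequences and recruits the spliceosome, and nrv2 is a beta subunit of the sodium-potassium pump, which in flies is also part of septate junctions. The current gene table lists CUT8 as another name of CG5199, and in fission yeast Cut8 holds proteasomes at the nucleus. CG12253, CG14995, CG1674 and CG10936 have only a CG number here, and no role is given for them. In an array measurement of sorted fractions, a transcript lower in G2 has a smaller share of the RNA of cells with replicated DNA, and no statement about the rate of its synthesis follows.

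mus101 (CG11156) was measured at 5.73, 5.71 and 5.84 in disc G2, against 6.84, 7.05 and 6.80 in disc G1. In S2 G2 it was at 6.08, 6.32 and 6.56, against 5.69, 6.01 and 5.90 in S2 G1. The disc fractions were far apart, the S2 fractions lay close to each other without overlap, and disc G2 and S2 G1 overlapped at the bottom. The G2 minus G1 change was -1.13 ± 0.13 (SE of the fit, n = 3 arrays per group, here and below) in the disc and 0.45 ± 0.13 in S2. Of the 9 genes it had the strongest change in the disc.

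spidey (CG1444) was at 6.21, 5.83 and 5.97 in disc G2, against 7.08, 7.0 and 6.91 in disc G1. In S2 G2 it was at 10.64, 10.80 and 10.95, against 9.57, 9.80 and 10.11 in S2 G1. All 4 groups were separate from each other, with S2 G2 at the top and disc G2 at the bottom. The changes were nearly mirror images, -1.0 ± 0.14 in the disc and 0.97 ± 0.14 in S2, each close to a factor of 2 (1.99-fold lower and 1.96-fold higher). The disc change minus the S2 change was -1.97 ± 0.20, the largest in size of the 9.

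SF2 (CG6987) gave different readings through its probe sets. Probe set 1629409_s_at was at 7.88, 7.70 and 7.73 in disc G2, against 8.41, 8.51 and 8.55 in disc G1, and at 7.12, 7.24 and 6.95 in S2 G2, against 6.54, 6.85 and 6.43 in S2 G1. Its changes were -0.72 ± 0.12 in the disc and 0.50 ± 0.12 in S2. Probe set 1634975_at was at 13.13, 13.21 and 13.14 in disc G2, against 13.19, 13.16 and 13.11 in disc G1, and at 12.66, 12.60 and 12.62 in S2 G2, against 12.71, 12.73 and 12.44 in S2 G1. Here the fractions overlapped in both sources. The change was 0.00 ± 0.09 in the disc (95% interval -0.19 to 0.19) and 0.00 ± 0.09 in S2 (-0.19 to 0.19). The opposite movement of SF2 therefore stands for 1 of its 2 probe sets. In Affymetrix naming the ending s_at marks probes that match more than 1 transcript. Which transcripts these are, and whether all belong to the same gene, was not analysed here. The same limit holds for nrv2 (probe set 1625215_s_at) and CG10936 (1639703_s_at) below.

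**Figure D1:**
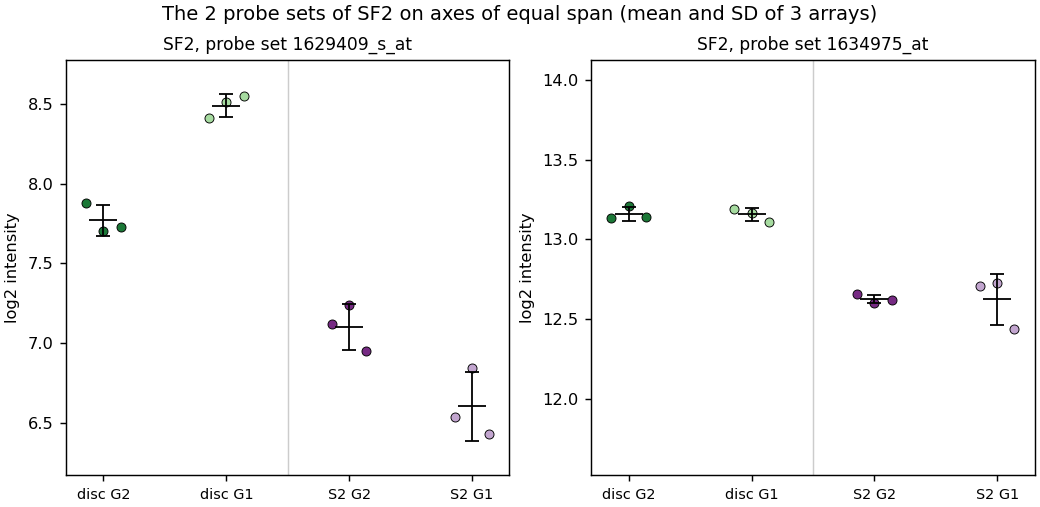
Log2 intensity of both SF2 probe sets in disc G2, disc G1, S2 G2 and S2 G1, on axes of equal span; points are arrays, bars the mean and SD of 3 arrays. The s_at probe set differs between fractions in opposite directions, while the fractions of the at probe set overlap in the disc and in S2.

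nrv2 (CG9261) was at 9.93, 10.01 and 9.80 in disc G2, against 10.54, 10.48 and 10.38 in disc G1. In S2 G2 it was at 8.22, 7.84 and 8.04, against 7.64, 7.70 and 7.26 in S2 G1. The changes were -0.55 ± 0.13 and 0.50 ± 0.13. S2 pair 5, with 7.84 in G2 and 7.70 in G1, showed the smallest difference of any gene and pair (0.14).

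CG5199 was at 7.82, 7.78 and 7.90 in disc G2, against 8.36, 8.32 and 8.24 in disc G1, and at 7.46, 7.53 and 7.46 in S2 G2, against 7.11, 7.11 and 7.27 in S2 G1. CG12253 was at 8.79, 8.85 and 8.73 in disc G2, against 9.22, 9.06 and 9.14 in disc G1, and at 7.83, 7.76 and 7.68 in S2 G2, against 7.35, 7.45 and 7.29 in S2 G1. Both genes, like nrv2 and the s_at probe set of SF2, had the group order disc G1, disc G2, S2 G2, S2 G1 with no overlap between neighbours. The changes of CG5199 were -0.48 ± 0.08 in the disc and 0.32 ± 0.08 in S2, and those of CG12253 were -0.35 ± 0.08 and 0.39 ± 0.08. The disc change of CG12253 and the S2 change of CG5199 were the smallest of the 9.

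CG14995 was at 6.46, 6.62 and 6.59 in disc G2, against 7.27, 7.70 and 7.29 in disc G1, and at 8.44, 8.86 and 8.48 in S2 G2, against 7.64, 8.22 and 7.89 in S2 G1. Its order ran from S2 G2 to disc G2, and only the neighbours S2 G1 and disc G1 overlapped. The changes were -0.86 ± 0.17 in the disc and 0.68 ± 0.17 in S2.

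CG1674 was at 5.48, 5.36 and 5.34 in disc G2, against 6.03, 6.16 and 6.23 in disc G1, and at 7.32, 7.52 and 7.67 in S2 G2, against 7.01, 7.05 and 7.12 in S2 G1, through probe set 1625476_a_at. The order was S2 G2, S2 G1, disc G1, disc G2, as for spidey, with no overlap. Its changes were -0.75 ± 0.10 and 0.44 ± 0.10, and disc G2 lay just above background. The second probe set, 1626694_at, was between 2.78 and 3.25 on all 12 arrays and was not tested, since it failed the filter on dim probe sets.

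CG10936 ran the other way. It was at 9.39, 9.19 and 9.35 in disc G2, against 8.76, 8.90 and 9.06 in disc G1, a change of 0.40 ± 0.11. In S2 G2 it was at 3.98, 4.02 and 3.80, against 4.25, 4.36 and 4.50 in S2 G1, a change of -0.44 ± 0.11. All 6 S2 values were under 5, so the S2 change of CG10936 is a difference between values near background.

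**Figure D2:**
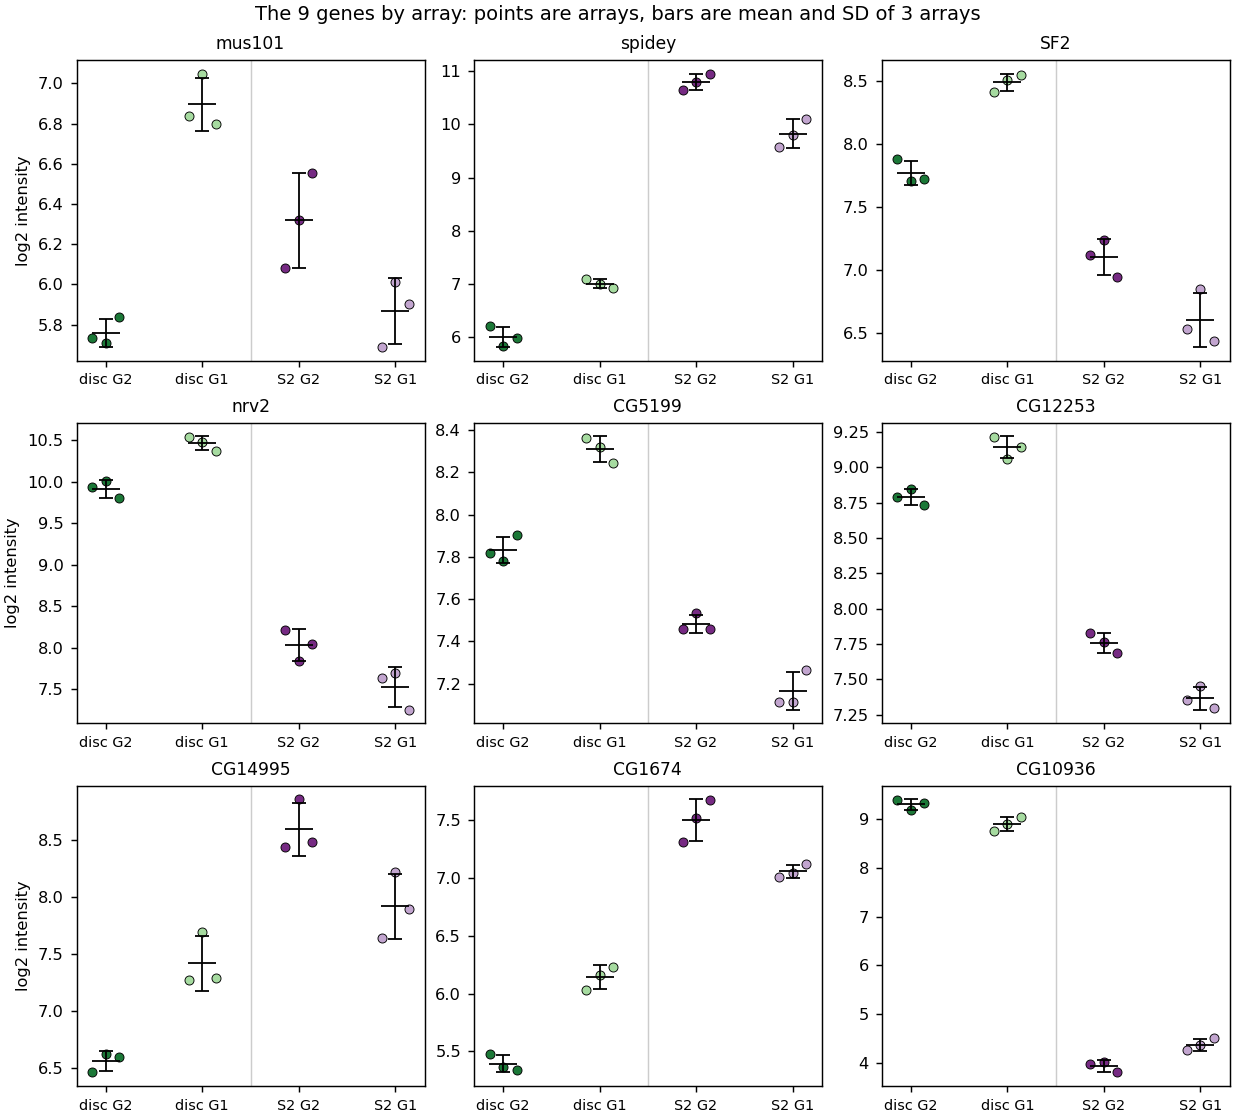
Log2 intensity of the 9 genes in disc G2, disc G1, S2 G2 and S2 G1, each panel with its own axis; points are arrays, bars the mean and SD of 3 arrays, and SF2 and CG1674 are shown through the s_at probe set and the a_at probe set. In 8 panels G2 lies below G1 in the disc and above it in S2, and in that of CG10936 the reverse.

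The values above describe the choice and carry no test. In the probe set through which each gene was chosen the fractions did not overlap in either source, which held for 34.1% of the 8580 probe sets tested in the disc, for 26.8% in S2, and for 1.96% in both with opposite directions. Same-numbered G2 and G1 arrays gave 54 differences over the 9 genes, with sizes from 0.14 to 1.34. All 54 had the direction of their mean, which follows from the lack of overlap and adds nothing to it. At an adjusted p under 0.05, 10.5% of all probe sets differed between the disc fractions (5.2% higher and 5.31% lower in G2) and 9.65% between the S2 fractions (6.13% higher and 3.52% lower). In S2 the split was 526 higher and 302 lower, which turned to 389 and 422 after cyclic loess scaling. Both tests were passed by 229 probe sets (2.67%), of which 21 (0.245% of those tested) had opposite directions, 12 lower in disc G2 and higher in S2 G2 (0.14%) and 9 the other way (0.105%). The disc change minus the S2 change passed in 5.1% of all probe sets (2.21% higher and 2.89% lower) and in the 9 probe sets that were chosen, which follows from the choice and is no test of them.

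The 9 genes hold 9 of these 21 probe sets. Among them 8 genes were lower in disc G2 and higher in S2 G2, against 4 of the other 12 probe sets. Those 4 were Cdc6, a loader of the replicative helicase (-1.01 in the disc and 0.82 in S2), the centrosome genes spd-2 (-0.50 and 0.48) and Plp (-0.52 and 0.66), and a probe set with no gene listed (-0.74 and 0.41). The reverse was seen in 8: CG15282 (1.29 and -0.66), Ance (0.84 and -0.65), Ugt302K1 (0.76 and -0.42), CG42675 (0.69 and -0.79), Spn77Ba (0.59 and -0.54), CG42268 (0.58 and -0.72), gem (0.40 and -0.38) and Glut1 (0.57 and -0.94), the glucose transporter. The disc fractions of Glut1 overlapped, with G2 minus G1 differences of 0.91, -0.01 and 0.81 in its disc pairs. Like CG10936, CG15282 and Ugt302K1 were under 5 in both S2 fractions on average (4.00 and 4.67 for CG15282, 3.81 and 4.23 for Ugt302K1, G2 before G1). The last inside the threshold were mus101 (S2 adjusted p = 0.0466) and Glut1 (disc adjusted p = 0.0413). The first outside were a probe set with no gene listed (0.50 and -0.51, S2 adjusted p = 0.0502) and luna (-0.33 and 0.45, disc adjusted p = 0.0502).

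**Figure D3:**
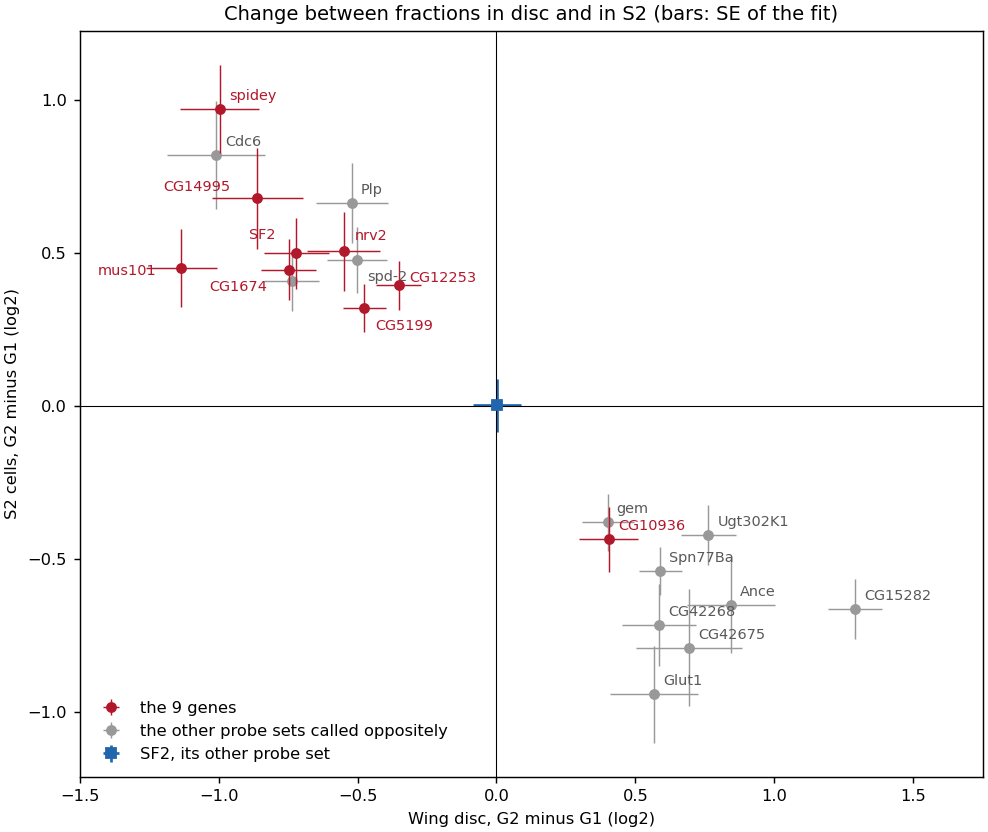
G2 minus G1 in the wing disc (horizontal) against G2 minus G1 in S2 cells (vertical), both on the log2 scale with the SE of the fit, for the 9 genes, the other 12 probe sets with opposite changes, and the at probe set of SF2. Of the 9 genes, 8 lie at the upper left and CG10936 at the lower right, and the at probe set lies at the origin.

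The number of genes past both thresholds depended on the fit, while the changes themselves moved little where a setting could move them. Over 20 other settings, every G2 minus G1 change of the 10 tested probe sets stayed within 1 SD between replicates of its value, with 3 exceptions. These were CG12253 (0.32) and CG5199 (0.24) in S2 after cyclic loess and the at probe set of SF2 (-0.09) in S2 without S2 G1 array 6. Only array scaling, array weights and leaving out an array of the same source could move a change. Another filter, the variance trend, the block and leaving out an array of the other source leave the estimate as it is. The calls describe the thresholds that made the choice and do not test it. spidey passed in both sources with opposite directions in all 20, CG14995, CG1674, SF2 (the s_at probe set) and CG12253 missed a threshold in 3, CG5199 in 7, nrv2 in 9, CG10936 in 11 and mus101 in 12. The 12 settings that leave out 1 array brought the number of genes that passed down to between 3 and 8. It was 3 without S2 G1 array 4 and also without S2 G2 array 6, 4 without S2 G2 array 5, and 5 without S2 G2 array 4, disc G1 array 2 or disc G2 array 4. With replicate number as a block all 9 passed, as did 90 probe sets in all.

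The mean level in the disc against that in S2, averaged over both fractions, is the contrast that the choice of genes did not use. It asked where each transcript is more abundant. All 9 genes passed (limma, adjusted p under 0.05), 6 higher and 3 lower in the disc, against 83.7% of all probe sets (41% higher and 42.7% lower), so the count is close to that of the whole table. Unless stated, the level p-values here and below treat the 6 arrays of a source as independent, although same-numbered arrays deviated together. They also use the same residual spread per probe set as the tests that made the choice, so they are not independent of it. The median size of the difference was 1.40 over the 9 genes and 0.70 over all probe sets. The 6 disc arrays did not overlap the 6 S2 arrays in 7 of the 9 genes, against 65.1% of all probe sets. Subtracting array medians moved the median difference of all probe sets to -0.12, against -0.01 as deposited.

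CG10936 averaged 9.11 ± 0.25 in the disc and 4.15 ± 0.26 in S2 (SD, n = 6 arrays each), with all 6 S2 values under 5. Against a floor of 5 it was at least 17.3-fold higher in the disc. CG10936 passed the filter on dim probe sets through its disc arrays only. The direction of its level was thus set by the filter, and its pass among the 9 is no test. spidey averaged 6.50 ± 0.56 in the disc and 10.31 ± 0.57 in S2, a difference of -3.81 ± 0.10, or 14.0-fold lower in the disc (adjusted p = 4.1e-12). nrv2 averaged 10.19 ± 0.31 in the disc and 7.78 ± 0.34 in S2, a difference of 2.41 ± 0.09 or 5.3-fold (adjusted p = 1.23e-10). On the means of same-numbered arrays the adjusted p was 4.8e-08 for spidey and 1.58e-07 for nrv2. Among the 8 genes above background in both sources, spidey and nrv2 had the widest gaps.

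Smaller differences separated the others. CG12253 was higher in the disc by 1.40 ± 0.06 (adjusted p = 2.07e-10), SF2 by 1.28 ± 0.08 through the s_at probe set (adjusted p = 1.73e-08) and by 0.53 ± 0.06 through the at probe set (adjusted p = 4.51e-06), and CG5199 by 0.75 ± 0.05 (adjusted p = 6.08e-08). For SF2 the level thus had the same direction through both probe sets. CG1674 and CG14995 were lower in the disc, by -1.51 ± 0.07 (adjusted p = 8.18e-10) and -1.27 ± 0.12 (adjusted p = 5.59e-07). On the means of same-numbered arrays the adjusted p was 7.11e-07 for CG12253, 2.02e-05 for CG5199, 9.83e-07 for CG1674 and 6.76e-05 for CG14995. For SF2 it was 7.9e-06 through the s_at probe set and 0.000291 through the at probe set. mus101 averaged 6.33 ± 0.63 in the disc and 6.09 ± 0.31 in S2, a difference of 0.23 ± 0.09 (95% interval 0.04 to 0.43, adjusted p = 0.0295). It did not pass on the means of same-numbered arrays (adjusted p = 0.0669), nor after subtraction of array medians (0.12, adjusted p = 0.26). It also missed the threshold without S2 G1 array 4, S2 G2 array 4 or 5, disc G1 array 3 or disc G2 array 4 (adjusted p of 0.0505 to 0.0752).

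Because the changes run in opposite directions, the gap between disc and S2 depended on the fraction. For mus101 the sign turned: disc minus S2 was -0.56 within G2 and 1.03 within G1. For spidey the gap was -4.79 within G2 and -2.83 within G1, a 27.7-fold against a 7.1-fold difference. CG14995 (-2.04 and -0.50) and CG1674 (-2.11 and -0.92) also stood further apart within G2. In nrv2 (1.88 and 2.93), SF2 (0.67 and 1.88), CG12253 (1.03 and 1.78) and CG5199 (0.35 and 1.14) the gap was smaller within G2. For CG10936, with S2 under 5, only the lower limits of 4.31 within G2 and 3.91 within G1 can be given. These gaps share arrays with the changes that made the choice, so they are given without a test.

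**Figure D4:**
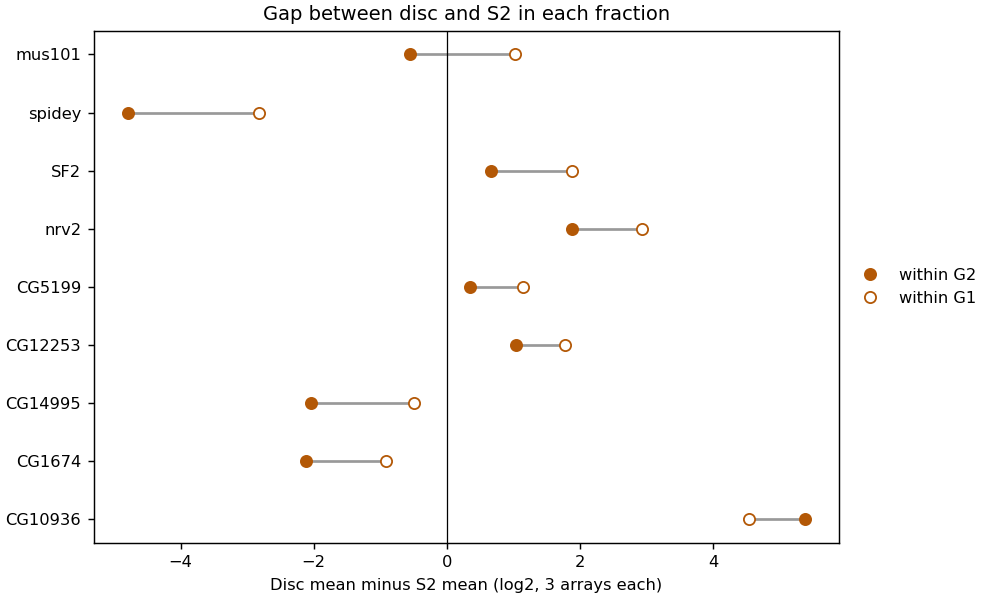
Disc mean minus S2 mean on the log2 scale within G2 (filled) and within G1 (open) for the 9 genes, 3 arrays per group. The points of mus101 lie on either side of 0, and the points of every other gene lie on 1 side. The points of CG10936 use S2 values under 5.

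The pathway genes around 4 of the named genes were then read in the same fits, and their counts stand beside the shares of all probe sets given above, 5.2% higher and 5.31% lower in disc G2, 6.13% and 3.52% in S2 G2, 2.21% and 2.89% for the difference of changes, and 41% and 42.7% by level. For mus101, 22 genes of checkpoint signalling and replication start were tested. In disc G2, 7 were lower and 0 higher (8 and 2 with replicate number as a block, with Hus1-like and Brca2 higher), with a median of -0.12 (0.05 over all probe sets). RecQ4 fell by 1.90 ± 0.10 (adjusted p = 5.49e-07), Cdc45, a part of the replicative helicase, by 1.72 ± 0.09 (adjusted p = 3.92e-07), and the GINS subunit Psf1 by 1.38 ± 0.13 (adjusted p = 2.96e-05). In S2 G2, 3 were higher and 5 lower (4 and 6 with the block), with a median of 0.04 (0.02 over all probe sets). There RecQ4 (-0.54 ± 0.10, adjusted p = 0.00647), Cdc45 (-0.47 ± 0.09, adjusted p = 0.0063) and Psf1 (-0.64 ± 0.13, adjusted p = 0.0104) were lower, where mus101 was higher. The 3 higher genes were the checkpoint kinases lok (0.69 ± 0.11, adjusted p = 0.00359) and grp (0.40 ± 0.10, adjusted p = 0.0309), the fly Chk2 and Chk1, and the nuclease gene mus81 (0.53 ± 0.12, adjusted p = 0.0191). Their disc values were -0.05 for lok, 0.01 for grp and 0.09 for mus81, and none of these passed. The disc change minus the S2 change passed in 6 genes as lower and 0 as higher (8 lower and 1 higher with the block, Hus1-like being the higher one), among them lok (-0.74 ± 0.16, adjusted p = 0.0209). By level, 9 of the 22 were higher and 9 lower in the disc.

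For spidey, 15 genes of fatty acid synthesis and elongation were tested. FASN1, the fatty acid synthase, was lower in disc G2 (-0.63 ± 0.16, adjusted p = 0.0304) and stood at 0.35 ± 0.16 in S2 (adjusted p = 0.221). Hacd2, the dehydratase that follows the ketoacyl reductase in the elongation cycle, was higher in S2 G2 (0.67 ± 0.14, adjusted p = 0.0127) and stood at -0.32 ± 0.14 in the disc (adjusted p = 0.183, or 0.0376 with replicate number as a block). These were the only genes of the list whose disc change differed from the S2 change, by -0.98 ± 0.23 for FASN1 (adjusted p = 0.0328) and -0.99 ± 0.20 for Hacd2 (adjusted p = 0.0154), the sign that spidey has. In all, 1 gene of the list was lower and 0 higher in disc G2 (3 lower and 1 higher with the block), and 1 was higher and 0 lower in S2 G2 (1 higher and 1 lower with the block), so both counts are close to the share of all probe sets. The medians were -0.01 in the disc and -0.05 in S2. Sc2, the enoyl reductase that closes the cycle, stood at 0.22 ± 0.08 and 0.14 ± 0.08. By level, 7 of 15 genes were higher and 7 lower in the disc, near the shares of all probe sets. FASN1 stood at -3.42 ± 0.12 (adjusted p = 4e-11) and ACC, acetyl-CoA carboxylase, at -1.75 ± 0.10 (adjusted p = 5.75e-09), lower in the disc like spidey. Other enzymes of the elongation cycle were higher there, unlike spidey: Sc2 by 0.53 ± 0.05 (adjusted p = 1.52e-06), Hacd1 by 0.34 ± 0.07 (adjusted p = 0.000588) and Hacd2 by 0.85 ± 0.10 (adjusted p = 6.02e-06). CG31523 of the same list was lower in the disc (-1.55 ± 0.11, adjusted p = 5.34e-08). CG5326 had all S2 values under 5 and was at least 21.7-fold higher in the disc, a direction set by the filter on dim probe sets.

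For SF2, 17 genes of SR proteins and linked splicing factors were tested. In disc G2 limma called 0 of them, also 0 with replicate number as a block and 0 at an unadjusted p under 0.05, where the s_at probe set of SF2 was lower. In S2 G2, 3 were higher and 0 lower, namely Rsf1 (0.56 ± 0.09, adjusted p = 0.00291), tra2 (0.37 ± 0.09, adjusted p = 0.0181) and Srrm1 (0.50 ± 0.12, adjusted p = 0.0237). With the block 4 were higher and 0 lower there, and at an unadjusted p under 0.05 it was 7 and 0. The medians were 0.08 in the disc and 0.19 in S2, and the disc change minus the S2 change passed in 0 genes (3 lower at an unadjusted p under 0.05, and 1 lower with the block). By level, 10 were higher and 1 lower in the disc, led by the sex-determination splicing factor tra (2.83 ± 0.10, adjusted p = 4.61e-11).

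For nrv2, 21 genes from a list of the sodium-potassium pump and septate junctions were tested. Of the pump genes only nrv1 was among them. nrv3 failed the filter and Atpalpha had no probe set naming it alone, so the counts describe septate junction and polarity genes rather than the pump. In disc G2, 3 were higher and 1 lower (8 and 1 with replicate number as a block), with a median of 0.25. vari (0.39 ± 0.08, adjusted p = 0.0103), bark (0.59 ± 0.13, adjusted p = 0.0149) and Tsf2 (0.40 ± 0.10, adjusted p = 0.0322) rose where nrv2 was lower, while scrib, a polarity scaffold, fell by 1.70 ± 0.22 (adjusted p = 4.0e-04). In S2 G2, M6 was higher (0.87 ± 0.18, adjusted p = 0.0103) and bou lower (-0.52 ± 0.10, adjusted p = 0.00653), against 3 higher and 1 lower with the block, and the median was 0.03. The disc change minus the S2 change passed in bou (0.85 ± 0.14) and bark (0.73 ± 0.19, with S2 means under 5), both opposite in sign to nrv2, and in scrib (-1.60 ± 0.31), and with the block in 4 higher and 1 lower. nrv1, the related beta subunit whose gene lies next to nrv2, stood at 0.08 ± 0.11 in the disc and 0.04 ± 0.11 in S2. By level, 17 of 21 were higher and 3 lower in the disc, with bou at 4.15 ± 0.07 (adjusted p = 7.34e-14), sinu at 5.36 ± 0.11 (adjusted p = 3.56e-13) and, on the other side, nrv1 at -0.94 ± 0.08 (adjusted p = 1.81e-07). nrv2, at 2.41, had the sign of the majority.

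**Figure D5:**
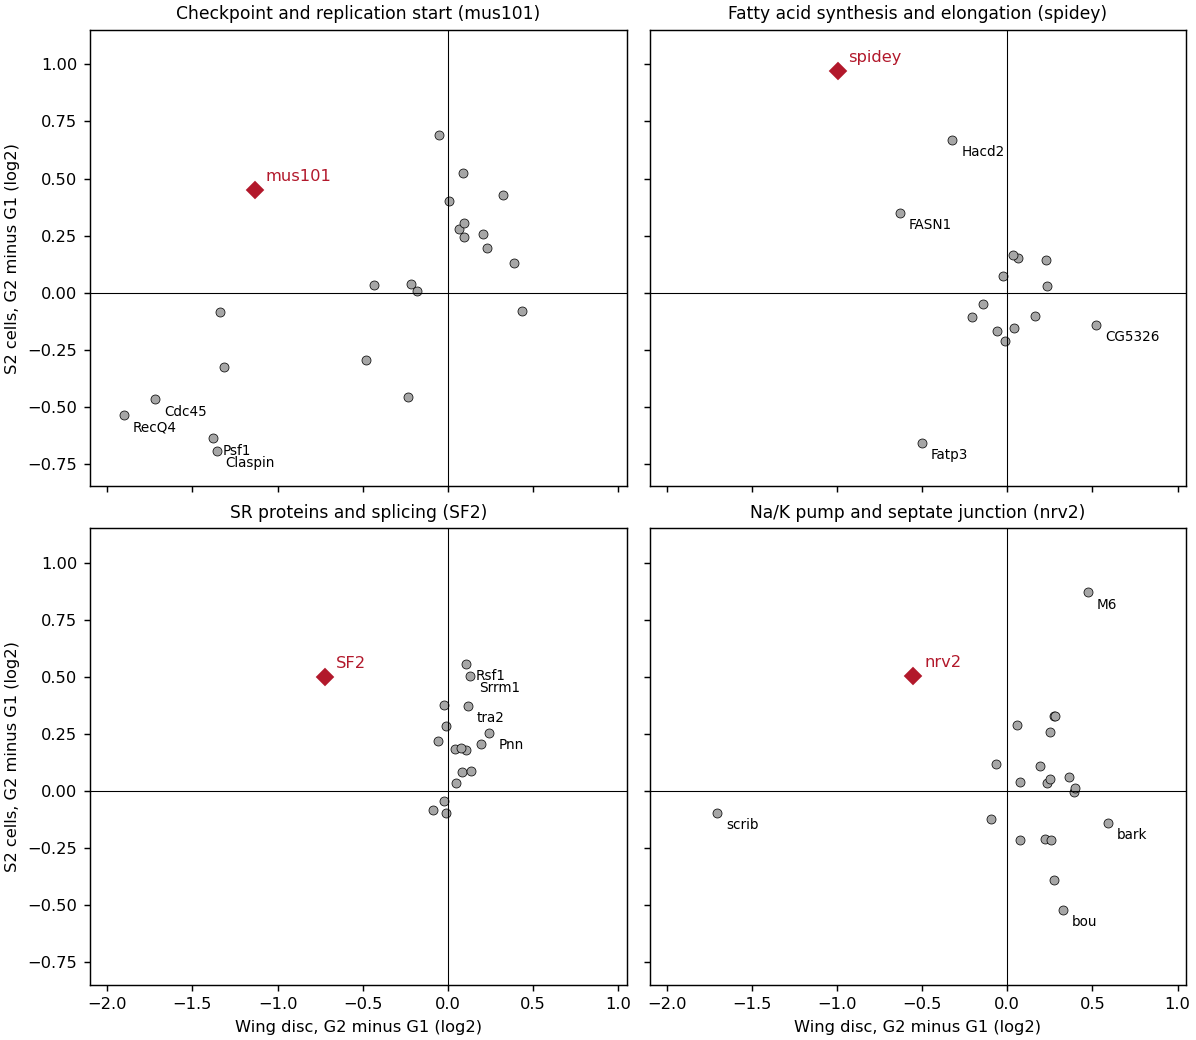
G2 minus G1 in the wing disc (horizontal) against G2 minus G1 in S2 cells (vertical), log2 scale, for the tested genes of 4 pathway lists (circles) with mus101, spidey, SF2 (the s_at probe set) and nrv2 (diamonds). The diamonds lie at the upper left, and Hacd2 and FASN1 also lie there in the panel of spidey.

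Marker genes of further cell types differed between the disc fractions as well. Of 7 adult muscle precursor genes, 5 were lower in disc G2 and 0 higher, with summed intensities of 8007 to 11049 in disc G2 and 13701 to 16925 in disc G1. Of 12 haemocyte genes, 3 were lower and 0 higher (5 and 0 with replicate number as a block), with sums of 4290 to 4588 in disc G2 and 8403 to 10283 in disc G1. The 3 were the basement membrane genes SPARC (-1.59 ± 0.12, adjusted p = 6.46e-06), vkg (-1.62 ± 0.22, adjusted p = 0.000521) and Col4a1 (-1.62 ± 0.23, adjusted p = 0.000776). With the block Pxn (-0.59, adjusted p = 0.0485) and gcm (-0.41, adjusted p = 0.0242) were lower as well, gcm from a mean of 5.27 in disc G1 to 4.87 in disc G2. Hml, NimC1, srp, eater, crq, Ppn and ush did not pass in either fit. Of 5 tracheal genes tested, 3 were higher and 0 lower. Tracheal genes summed to 3356 to 3634 in disc G2 and 2217 to 2744 in disc G1, and wing disc genes to 7498 to 7972 and 6114 to 6955. The part of these shifts in the disc changes of the 9 genes was not tested. In S2, 1 muscle gene was higher in G2 and 0 of the haemocyte genes passed. There the muscle genes twi, htl, Him, Act87E and kirre were under 5 in both fractions. Of the neuron and glia genes, which bear on nrv2, 5 of 7 were tested. The glial gene moody was higher in disc G2 (1.24 ± 0.18, adjusted p = 0.000807) and in S2 G2 (0.72 ± 0.18, adjusted p = 0.0266), and loco was lower in S2 G2 (-0.50 ± 0.14, adjusted p = 0.0402). In disc G1 moody had a mean of 4.36, near background, which limits what its disc change can show. elav, Nrt, loco and nSyb had means of at least 5 in both disc fractions, repo and brp were under 5 in all 4 groups, and the list summed to 690.4 to 863 in disc G2 and 768.3 to 884.5 in disc G1.

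Likeness over the 12 arrays was measured with Pearson's r between log2 values, as a description. It draws mostly on the difference between disc and S2. The 9 were chosen for like changes on these arrays, so likeness among them is partly set by the choice. CG12253 was the gene most like nrv2 (r = 0.995), CG5199 and CG12253 the most like the s_at probe set of SF2 (0.971 and 0.969), and spidey the most like CG1674 (0.984). Next to CG5199 stood vls (0.970) and spd-2 (0.964), and next to CG14995 the checkpoint gene mad2 (0.961) and the anaphase-promoting complex gene APC7 (0.958). For mus101, whose disc and S2 levels are close, the highest values were 0.913 (CG9426) and 0.906 (CG1737). spidey was followed by CG3434 and Mul1 (0.993 each), CG10936 by CG2812 and CG6959 (0.998 each), and the at probe set of SF2 by CG1344 and Ent2 (0.992 each). The second places of the others went to Setd3 for nrv2 (0.992), Art1 for CG12253 (0.987) and Flo2 for CG1674 (0.980).

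Of the 24 genes on either side of the 9 or overlapping them in the current RefSeq gene order, 12 were tested. limma called 1 between the disc fractions, yellow-h next to CG1674 (-1.27 ± 0.24, adjusted p = 0.00448), and 0 between the S2 fractions (1 at an unadjusted p under 0.05), where 10.5% and 9.65% of all probe sets were called. These neighbours were looked up after the values of the 9 genes were known.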

How the data were processed

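RNA of 12 samples, 3 per group, was measured on Affymetrix Drosophila arrays from 100 ng of total RNA per sample. Per the submitters' processing notes, RMA and R 2.15.2 were used, and the table the authors deposited holds an intensity per probe set, not yet in logs. Details of the RMA steps are not stated. Arrays give no counts, and their number limits the precision.

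Log2 was taken, and 183 control probe sets were left out. Probe sets with log2 of at least 5 on at least 3 arrays were kept (8580 of 18769). Gene symbols came from the platform annotation of 2016 (13647 probe sets with 1 gene, 402 with several, 4720 with none listed). Genes of the lists were followed through their brightest kept probe set. RefSeq positions served only to find neighbouring genes, and no sequences were used.

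Each probe set was fitted with the 4 group means as coefficients over the 12 arrays (limma 3.58.1, R 4.3.3, lmFit then eBayes, two-sided, 8 residual and 3.52 prior degrees of freedom), and adjusted over 8580 probe sets after Benjamini and Hochberg. The fits were also run on simulated data in which all arrays varied independently, so that run cannot judge the fit without pairing. Same-numbered G2 and G1 arrays deviated together (r of 0.31 to 0.52 in 6 pairs, -0.50 to 0.01 in 12 others), so the numbers pair the samples. The block was replicate number within cell type for changes, and means of same-numbered arrays for levels. The genes and lists were chosen with earlier results of these data known. Named are the 9 genes, up to 3 genes with the smallest p per list and contrast, probe sets with opposite changes and the 2 genes most like each of the 9; Sc2, Hacd1, Hus1-like, Brca2, nrv1, single marker genes, the disc values of lok, grp and mus81, and neighbours were added after values were seen. Alternatives were array scaling, filter, array weights, a variance trend, the block and leaving out arrays. Plots used Python 3.11.15 and matplotlib 3.10.9.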

Additional observations from a re-analysis of the deposited data

Results flagged for a closer look

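In each probe set named here, all 3 same-numbered pairs moved one way in the disc and all 3 moved the other way in S2. That follows from fractions that do not overlap in either source. The fit gives a p for each difference, which is no test here because the genes were chosen on the same changes, and the difference was not tested on other data. The disc change minus the S2 change was -1.97 for spidey, -1.59 for mus101, -1.54 for CG14995, -1.22 for SF2 (the s_at probe set), -1.19 for CG1674, -1.06 for nrv2, -0.79 for CG5199, -0.74 for CG12253 and 0.84 for CG10936. Among the other probe sets it was -1.83 for Cdc6, -1.18 for Plp, -1.15 for the probe set with no gene listed, -0.98 for spd-2, 1.96 for CG15282, 1.49 for Ance, 1.48 for CG42675, 1.3 for CG42268, 1.19 for Ugt302K1, 1.13 for Spn77Ba and 0.78 for gem. Glut1 is left out here, since its disc pairs did not all move one way. Groups of 3 arrays were not screened for outlying samples.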

How the results depend on the processing

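The number of probe sets that differed between disc and S2 in level was 7179, and 6449 to 9084 over the other settings. The counts for disc, S2 and the difference of changes were 902, 828 and 438. With array weights they were 2043, 1645 and 1151, with replicate number as a block 1626, 1577 and 949, and with the block as a random effect 1809, 1768 and 1116. Opposite changes numbered 21, against 83 with array weights, 90 with the block and 81 with the random block. Leaving out 1 array gave 7009 to 7193 probe sets for level, 601 to 1152 for the disc (lowest without disc G1 array 4), 493 to 1088 for S2 (lowest without S2 G1 array 4), 281 to 586 for the difference of changes, 8 to 28 opposite changes, 3 to 8 of the 9 genes called oppositely and 8 to 9 of the 9 genes past the level test. After cyclic loess 5 of the 9 genes were called oppositely. Which values cause these moves was not tested. The blocked fit took mus101 out of the level calls and changed no other level call of the 9 genes. No level, and no change of the 9 probe sets that were chosen, turned its sign under any setting. For these changes only array scaling could have turned the sign, since the fractions of the 9 probe sets do not overlap. The changes of the other SF2 probe set, near 0, ranged from -0.02 to 0.05 in the disc and from -0.09 to 0.05 in S2. Values under 5, as for CG10936 in S2, limit what can be read from a change there.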
